A study of Homo sapiens with 15 samples.

Results

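Growth arrest and death receptor genes are described here in Caco-2, an epithelial cell line from a human colon carcinoma whose confluent layers take on features of enterocytes. The genes were 10 in number and were chosen by symbol, namely CDKN1A, CDKN1B, MDM2, GADD45A, GADD45B, SESN1, FAS, TNFRSF10A, TNFRSF10B and TP53INP1, out of 60557 genes listed in every library. Of these 10 genes 9 passed the filter on low counts that left 13158 genes for testing, and FAS did not. Monolayers were exposed for 24 h to dishwasher rinse aid diluted 1:10000, to rinse aid diluted 1:40000, or were kept unexposed as controls, with 5 libraries of polyadenylated RNA in each of these 3 groups. All groups used the same line, and the labels name no engineered allele, no further agent and no rinse aid product. The labels do not say whether replicates were separate cultures, and the p-values then cover just the spread between these libraries, which may be technical.

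Most of these genes are known targets of the transcription factor p53, and they can also be driven by other factors. Caco-2 cells lack working p53, and which factors set the levels below was not tested. Counts of p53 target genes and matches to p53 sites are descriptions and not a measure of p53 activity. p21, encoded by CDKN1A, and p27, encoded by CDKN1B, bind cyclin-dependent kinases and hold cells in the growth phase before DNA synthesis, while GADD45 proteins bind kinases of the stress and cell division pathways. MDM2 marks p53 for destruction and so closes a feedback loop, sestrins restrain the growth kinase mTORC1, and TP53INP1 takes part in autophagy and cell death. FAS and the TRAIL receptors TNFRSF10A and TNFRSF10B recruit an adaptor and caspases when their ligands bind.

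Levels are normalised read counts in CPM, scaled by trimmed means of M-values, and errors of levels are SD over 5 libraries. Log2 fold changes are first group over second, ± SE, from edgeR's quasi-likelihood test, with p-values adjusted by Benjamini-Hochberg over all 13158 genes. Genes with an adjusted p under 0.05 were called. Values given with an SE and an adjusted p are log2 fold changes. Totals ran from 5489425 to 9555632 counts at 1:10000, from 2551839 to 172092447 at 1:40000 and from 4333226 to 14230853 in controls. At 1:40000, replicate 1 was the deepest and replicate 2 the shallowest library of the series. Mitochondrial ribosomal RNA took 3.11 to 3.83% of counts at 1:10000, 0.626 to 1.24% at 1:40000 and 0.216 to 0.349% in controls, and its part in the results below was not tested. The deposited files of both rinse aid groups name the aligner HISAT2 and those of the controls RNA STAR, on annotations of different size. In either comparison with control, exposure therefore cannot be told apart from aligner or annotation. The comparison of 1:10000 with 1:40000 shares both. In bulk RNA, fewer cells of a kind and less RNA per cell cannot be told apart.

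At 1:10000, transcripts of GADD45A, GADD45B, TNFRSF10B, CDKN1B, MDM2 and TNFRSF10A were higher than in controls, those of SESN1 and TP53INP1 were lower, and CDKN1A did not pass the test. Thus 6 of the 9 tested genes were called higher and 2 lower, where 34.8% and 36.2% of all tested genes were called higher and lower. The median log2 fold change of the 9 genes was 0.48, against -0.020 over all genes tested. Groups did not overlap for 7 of the 9 genes, against 57.8% of all genes.

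At 1:40000, GADD45A, GADD45B, TNFRSF10B and CDKN1B were called higher than in controls and SESN1 lower, while MDM2, TP53INP1, TNFRSF10A and CDKN1A did not pass the test. These 4 higher and 1 lower calls among 9 genes stand beside 26.1% and 26.0% of all genes. Groups did not overlap for 3 of the 9 genes, namely GADD45A, TNFRSF10B and SESN1, against 36.3% of all genes. The median log2 fold change was 0.052, against -0.002 over all genes. Without replicates 1 and 2 at 1:40000, the counts were 2 higher and 2 lower, as CDKN1B and GADD45B were no longer called and TP53INP1 was called lower.

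Set against 1:40000, the stronger solution gave 6 higher and 2 lower calls among the 9 genes, beside 28.3% and 29.1% of all genes. Their median log2 fold change was 0.50, against -0.007 over all genes, and groups did not overlap for 7 of 9 genes, against 40.3%. The 6 higher genes were GADD45A, GADD45B, TNFRSF10B, CDKN1B, TNFRSF10A and MDM2, and the 2 lower genes were SESN1 and TP53INP1. Without replicates 1 and 2 at 1:40000 there were 6 higher and 1 lower calls, TP53INP1 being lost.

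**Figure D1:**
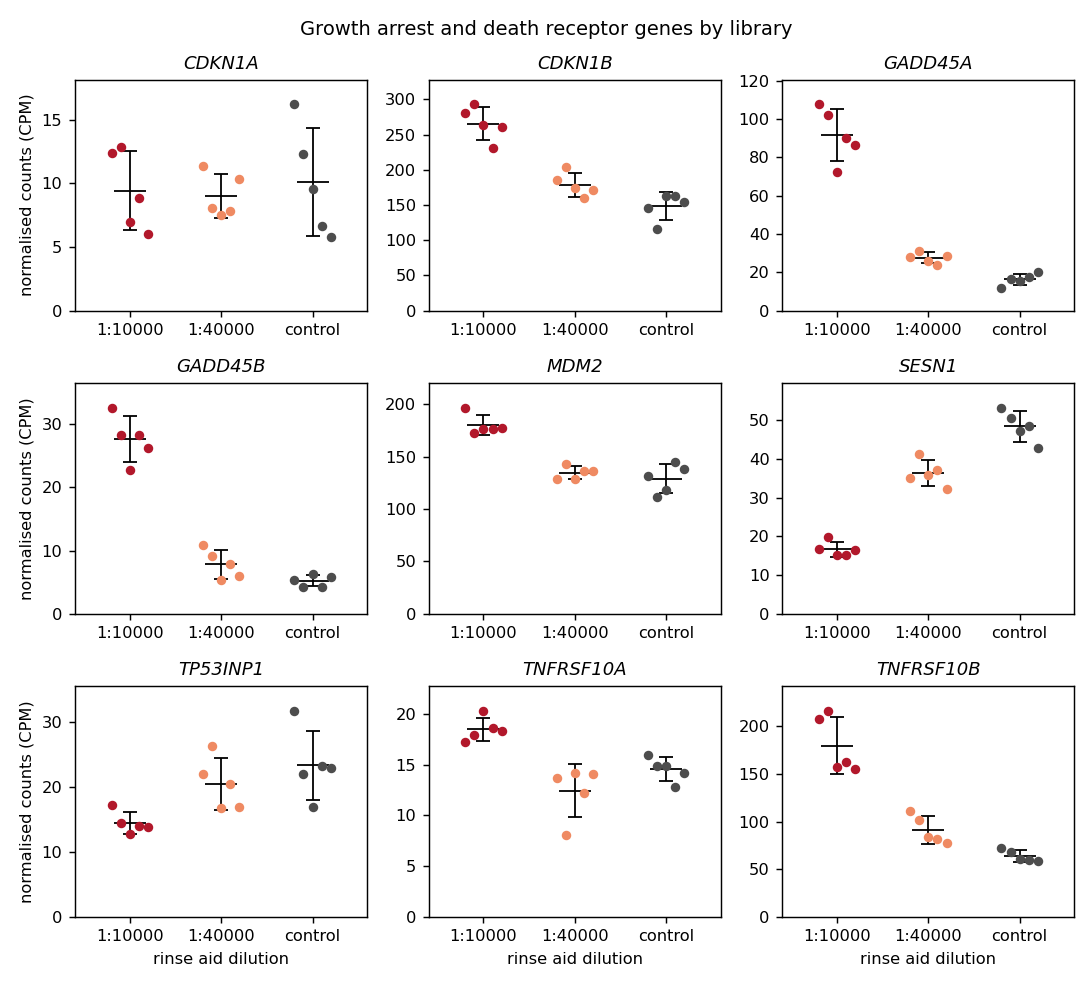
Normalised counts (CPM, each axis from 0) of the 9 tested genes in each library, by rinse aid dilution; points are libraries in replicate order, the long tick is the group mean and the bar its SD (n = 5). GADD45A averaged 91.6 CPM at 1:10000, 27.5 CPM at 1:40000 and 16.3 CPM in controls, SESN1 ran the other way with 16.6 CPM at 1:10000, 36.4 CPM at 1:40000 and 48.5 CPM in controls, and CDKN1A libraries overlapped throughout.

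The CDK inhibitor genes differed from each other. CDKN1B had 281, 293, 264, 230.5 and 261 CPM in replicates 1 to 5 of the 1:10000 monolayers, 185, 204, 174, 159.6 and 171 CPM in those of the 1:40000 monolayers, and 146, 116, 163, 163 and 155 CPM in those of the controls. Every 1:10000 library lay above every library of the other groups, while the 1:40000 and control libraries overlapped, with replicate 2 the lowest control. CDKN1B averaged 266 ± 23.6 CPM at 1:10000, 179 ± 16.6 CPM at 1:40000 and 148 ± 19.6 CPM in controls, with log2 fold changes of 0.84 ± 0.085 (SE, adjusted p = 7.05e-09) at 1:10000 against control and 0.58 ± 0.084 (SE, adjusted p = 3.76e-06) at 1:10000 against 1:40000. Its log2 fold change at 1:40000 against control was 0.26 ± 0.085 (SE, adjusted p = 0.0129), and without replicates 1 and 2 of 1:40000 it was 0.19 ± 0.091 (SE, adjusted p = 0.0996). In GENCODE 29 on GRCh38, CDKN1B (ENSG00000111276) is a protein-coding gene on the plus strand of chromosome 12 from 12715058 to 12722371.

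CDKN1A had 12.4, 12.8, 6.94, 8.85 and 6.05 CPM in replicates 1 to 5 of the 1:10000 monolayers, 11.3, 8.02, 7.52, 7.85 and 10.3 CPM in those of the 1:40000 monolayers, and 16.2, 12.3, 9.54, 6.66 and 5.82 CPM in those of the controls. The spread within each group exceeded the distance between the group means, and the highest and lowest libraries of the series were both controls. CDKN1A, the textbook p53 target, averaged 9.41 ± 3.09 CPM at 1:10000, 9.02 ± 1.72 CPM at 1:40000 and 10.1 ± 4.25 CPM in controls. Its log2 fold change was -0.066 ± 0.27 at 1:10000 against control (SE, 95% interval -0.64 to 0.51, adjusted p = 0.84) and -0.082 ± 0.26 at 1:40000 against control (95% interval -0.62 to 0.46, adjusted p = 0.814). Between 1:10000 and 1:40000 it was 0.015 ± 0.26 (95% interval -0.54 to 0.57, adjusted p = 0.967). These intervals leave room for changes in both directions and do not show that the level was equal. CDKN1A (ENSG00000124762) lies on the plus strand of chromosome 6 from 36676460 to 36687339.

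GADD45A and GADD45B had the largest upward changes of the 9 tested genes at 1:10000, against control and against 1:40000. GADD45A had 108, 102, 72.5, 90.0 and 86.2 CPM in replicates 1 to 5 of the 1:10000 monolayers, 27.8, 31.3, 25.7, 23.9 and 28.7 CPM in those of the 1:40000 monolayers, and 11.8, 16.5, 15.5, 17.4 and 20.0 CPM in those of the controls. The 3 groups did not overlap in any pair. GADD45A averaged 91.6 ± 13.7 CPM at 1:10000, 27.5 ± 2.85 CPM at 1:40000 and 16.3 ± 3.01 CPM in controls. Its log2 fold change was 2.47 ± 0.12 (SE, adjusted p = 3.66e-15) at 1:10000 against control, a 5.53-fold level, and 4.0% of all tested genes had a higher one. At 1:40000 against control it was 0.71 ± 0.12 (SE, adjusted p = 2.54e-05), and between 1:10000 and 1:40000 it was 1.76 ± 0.11 (SE, adjusted p = 3.48e-12), a value exceeded by 1.03% of genes. GADD45A (ENSG00000116717) lies on the plus strand of chromosome 1 from 67685061 to 67688338.

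GADD45B had 32.6, 28.3, 22.7, 28.4 and 26.2 CPM in replicates 1 to 5 of the 1:10000 monolayers, 10.9, 9.17, 5.26, 7.85 and 5.94 CPM in those of the 1:40000 monolayers, and 5.39, 4.31, 6.21, 4.28 and 5.82 CPM in those of the controls. All 1:10000 libraries lay above all others, and at 1:40000 replicates 3 and 5 fell within the range of the controls. GADD45B averaged 27.6 ± 3.62 CPM at 1:10000, 7.82 ± 2.30 CPM at 1:40000 and 5.20 ± 0.877 CPM in controls. The log2 fold change was 2.46 ± 0.19 (SE, adjusted p = 5.47e-11) at 1:10000 against control and 1.81 ± 0.17 (SE, adjusted p = 4.83e-09) at 1:10000 against 1:40000 (exceeded by 0.95% of genes). At 1:40000 against control it was 0.65 ± 0.19 (SE, adjusted p = 0.00736), but 0.37 ± 0.18 (adjusted p = 0.0852) without replicate 1 of 1:40000 and 0.31 ± 0.17 (adjusted p = 0.159) without replicates 1 and 2. GADD45B (ENSG00000099860) lies on the plus strand of chromosome 19 from 2476122 to 2478259.

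**Figure D2:**
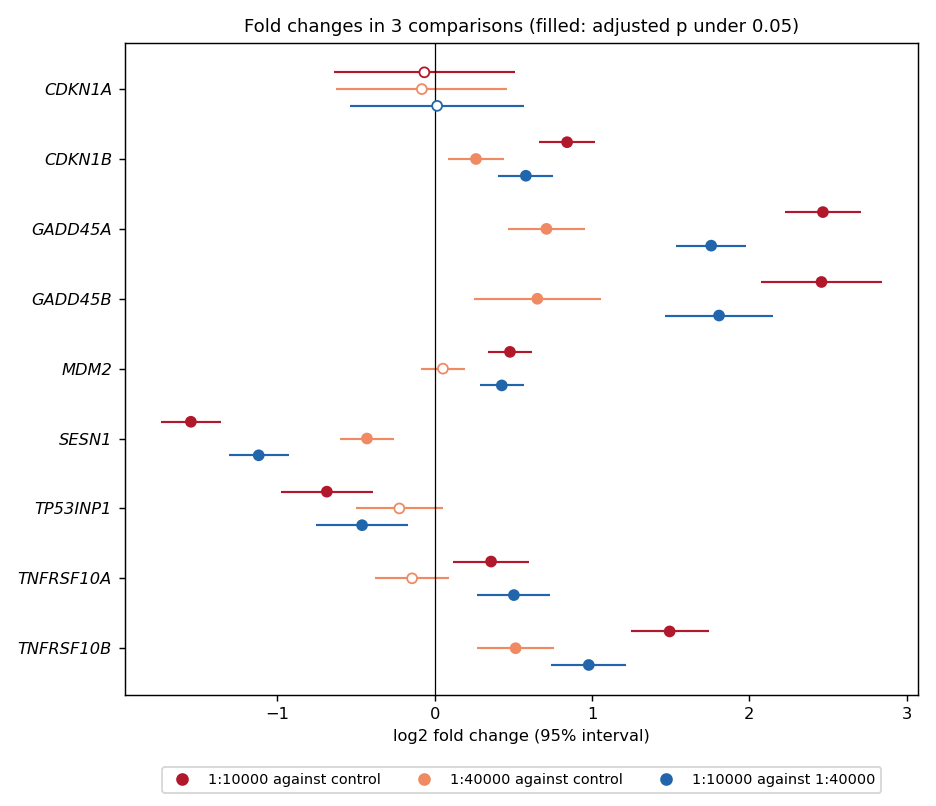
Log2 fold changes of the 9 tested genes with 95% intervals in the 3 comparisons, from edgeR's quasi-likelihood fit; filled points passed an adjusted p under 0.05 and open points did not. GADD45A and GADD45B lie furthest to the right at 1:10000 against control (2.47 and 2.46), SESN1 furthest to the left (-1.55), and all 3 intervals of CDKN1A cross 0.

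MDM2, the ubiquitin ligase of p53, was higher at 1:10000 than in either other group. MDM2 had 197, 173, 176, 176 and 178 CPM in replicates 1 to 5 of the 1:10000 monolayers, 129, 143, 129, 136 and 136 CPM in those of the 1:40000 monolayers, and 132, 111, 118, 145 and 138 CPM in those of the controls. All 1:10000 libraries lay above all others, with replicate 1 the highest, while 1:40000 and control libraries overlapped. MDM2 averaged 179.9 ± 9.61 CPM at 1:10000, 135 ± 6.10 CPM at 1:40000 and 129 ± 14.1 CPM in controls, with log2 fold changes of 0.48 ± 0.068 (SE, adjusted p = 8.15e-07) at 1:10000 against control and 0.43 ± 0.067 (SE, adjusted p = 8.07e-06) at 1:10000 against 1:40000. The log2 fold change at 1:40000 against control was 0.052 ± 0.068 (SE, 95% interval -0.087 to 0.19, adjusted p = 0.541). MDM2 (ENSG00000135679) lies on the plus strand of chromosome 12 from 68808176 to 68850686, and its exons overlap those of the carboxypeptidase M gene on the other strand, so without a stated strand setting counts in the overlap are uncertain. That neighbour had 3717 counts over the 15 libraries, against 40626 of MDM2, and was lower at 1:10000 than in controls by a log2 fold change of -1.22 ± 0.16 (SE, adjusted p = 1.6e-07).

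SESN1 and TP53INP1 ran the other way. SESN1 had 16.6, 19.9, 15.1, 15.1 and 16.4 CPM in replicates 1 to 5 of the 1:10000 monolayers, 35.1, 41.2, 36.0, 37.2 and 32.3 CPM in those of the 1:40000 monolayers, and 53.3, 50.5, 47.3, 48.5 and 42.8 CPM in those of the controls. No pair of groups overlapped, and every 1:10000 library lay below every 1:40000 library, which in turn lay below every control. SESN1, a sestrin, averaged 16.6 ± 1.97 CPM at 1:10000, 36.4 ± 3.29 CPM at 1:40000 and 48.5 ± 3.93 CPM in controls. Its log2 fold change was -1.55 ± 0.093 (SE, adjusted p = 1.65e-13) at 1:10000 against control, -0.43 ± 0.084 (SE, adjusted p = 0.000132) at 1:40000 against control and -1.12 ± 0.093 (SE, adjusted p = 3.11e-10) between 1:10000 and 1:40000. SESN1 (ENSG00000080546) lies on the minus strand of chromosome 6 from 108986437 to 109094819, and the identifier version of its gene model differed between the 2 sets of files, as it did for MDM2 and FAS.

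TP53INP1 had 17.2, 14.4, 12.7, 14.0 and 13.8 CPM in replicates 1 to 5 of the 1:10000 monolayers, 22.0, 26.4, 16.7, 20.4 and 16.9 CPM in those of the 1:40000 monolayers, and 31.8, 22.0, 16.9, 23.2 and 22.9 CPM in those of the controls. The 1:10000 libraries were the lowest as a group, and replicate 1, at 17.2 CPM, overlapped with the lowest 1:40000 and control libraries. TP53INP1 averaged 14.4 ± 1.67 CPM at 1:10000, 20.5 ± 4.00 CPM at 1:40000 and 23.3 ± 5.36 CPM in controls. The log2 fold change was -0.69 ± 0.14 (SE, adjusted p = 0.000144) at 1:10000 against control. At 1:40000 against control it was -0.23 ± 0.13 (95% interval -0.50 to 0.051, adjusted p = 0.162), and without replicates 1 and 2 of 1:40000 it was -0.38 ± 0.13 (adjusted p = 0.0252). Between 1:10000 and 1:40000 it was -0.46 ± 0.14 (SE, adjusted p = 0.00702), but -0.29 ± 0.14 (adjusted p = 0.0821) without those 2 libraries. TP53INP1 (ENSG00000164938) lies on the minus strand of chromosome 8 from 94925972 to 94949411.

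The 3 death receptor genes differed from one another. TNFRSF10B had 208, 217, 157, 162 and 155 CPM in replicates 1 to 5 of the 1:10000 monolayers, 112, 102, 83.5, 81.7 and 77.5 CPM in those of the 1:40000 monolayers, and 72.1, 68.3, 61.0, 59.8 and 58.4 CPM in those of the controls. No pair of groups overlapped, and replicates 1 and 2 were the highest of each group. TNFRSF10B, which encodes the TRAIL receptor DR5, averaged 179.8 ± 29.9 CPM at 1:10000, 91.2 ± 14.7 CPM at 1:40000 and 63.9 ± 5.96 CPM in controls. Its log2 fold change was 1.49 ± 0.12 (SE, adjusted p = 1.33e-09) at 1:10000 against control, 0.51 ± 0.12 (SE, adjusted p = 0.00123) at 1:40000 against control and 0.98 ± 0.11 (SE, adjusted p = 6.76e-07) between 1:10000 and 1:40000. TNFRSF10B (ENSG00000120889) lies on the minus strand of chromosome 8 from 23020133 to 23069179 and shares exon bases with RHOBTB2 on the other strand. That neighbour had 21105 counts over the 15 libraries, against 32270 of TNFRSF10B. Without a stated strand setting counts in the overlap are uncertain, and how reads there were shared out was not tested. RHOBTB2 moved the opposite way, at 56.7 ± 5.10 CPM at 1:10000, 69.8 ± 7.72 CPM at 1:40000 and 100.4 ± 4.55 CPM in controls, with log2 fold changes of -0.82 ± 0.077 (SE, adjusted p = 6.98e-10) and -0.51 ± 0.075 (adjusted p = 3.15e-06) against control.

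TNFRSF10A had 17.2, 17.9, 20.3, 18.6 and 18.3 CPM in replicates 1 to 5 of the 1:10000 monolayers, 13.7, 8.02, 14.2, 12.2 and 14.0 CPM in those of the 1:40000 monolayers, and 16.0, 14.9, 14.9, 12.8 and 14.2 CPM in those of the controls. The 1:10000 libraries lay above all others, and the 1:40000 libraries overlapped with the controls, with replicate 2 of 1:40000, the shallowest library, at 21 counts. TNFRSF10A, which encodes the TRAIL receptor DR4, averaged 18.5 ± 1.16 CPM at 1:10000, 12.4 ± 2.58 CPM at 1:40000 and 14.5 ± 1.17 CPM in controls. The log2 fold change was 0.36 ± 0.12 (SE, adjusted p = 0.00808) at 1:10000 against control and 0.50 ± 0.11 (SE, adjusted p = 0.000491) at 1:10000 against 1:40000. At 1:40000 against control it was -0.14 ± 0.11 (95% interval -0.38 to 0.091, adjusted p = 0.298). TNFRSF10A (ENSG00000104689) lies on the minus strand of chromosome 8 from 23190452 to 23225126 and shares exon bases with AC100861.1, a transcript on the other strand with 2411 counts in all against 4276 of TNFRSF10A. AC100861.1 was also higher at 1:10000, with a log2 fold change of 0.58 ± 0.14 against control (SE, adjusted p = 0.000683), and how reads in the overlap were shared out was not tested.

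FAS, the receptor of FAS ligand, was listed at 0 counts in all 15 libraries. A count of 0 allows up to 0.0809 CPM over the 1:10000 libraries, 0.0137 CPM over the 1:40000 libraries and 0.0740 CPM over the controls, taking 3 counts per group as the limit, and this covers counting error only. Over all 297272261 counts the limit is 0.0101 CPM. FAS (ENSG00000026103) lies on the plus strand of chromosome 10 from 88990582 to 89015785 and shares exon bases with ACTA2 on the other strand, which had 2 counts in all. In the same files 3405 of 19853 protein-coding genes (17.2%) were at 0 in every library. FAS transcripts were thus not detectable in these counts, and whether the counting step played a part was not tested.

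Per kilobase of exon, the order of the levels differed between the groups. Against controls, exposure cannot be told apart from aligner or annotation here either. The same exon length of each gene was used in all groups, although the annotations of the files differed in size. CDKN1B stood highest in every group, at 94.5 ± 8.41 CPM per kb at 1:10000, 63.6 ± 5.92 CPM per kb at 1:40000 and 52.8 ± 6.97 CPM per kb in controls, and its libraries did not overlap with those of the next gene. GADD45A came second at 1:10000, at 44.3 ± 6.64 CPM per kb, where it overlapped with TNFRSF10B at 34.9 ± 5.80. In controls TNFRSF10B came second, at 12.4 ± 1.16 CPM per kb, and GADD45A was the fifth, at 7.86 ± 1.45, overlapping with SESN1 at 9.46 ± 0.767. GADD45B was the lowest of the 9 in controls, at 2.43 ± 0.410 CPM per kb, and at 1:10000 was the fifth, at 12.9 ± 1.69, overlapping with MDM2 at 13.6 ± 0.724. CDKN1A lay among the 2 lowest genes of each group and overlapped there with its neighbours, at 3.08 ± 1.01 CPM per kb at 1:10000, 2.96 ± 0.563 at 1:40000 and 3.31 ± 1.40 in controls.

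Replicates 1 and 2 were the 2 highest libraries of their group for 6 of 9 genes at 1:10000, including GADD45A, CDKN1A and TNFRSF10B, against 20.1% of all tested genes. The same held for 4 of 9 genes at 1:40000, including GADD45B and TNFRSF10B, against 20.5% of all genes, and for 4 of 9 in controls, including CDKN1A and SESN1, against 18.2%. Mitochondrial ribosomal RNA was also highest in replicates 1 and 2 at 1:40000 (1.24 and 1.19% of counts, against 0.626 to 0.791% in the other 3) and in controls (0.349 and 0.336%, against 0.216 to 0.274%). This did not hold at 1:10000, where replicate 2 had 3.833%, replicate 3 had 3.286% and replicate 1 had 3.281%. The part of mitochondrial ribosomal RNA in these levels was not tested. The labels name no batch.

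Some genes followed these patterns closely over the 15 libraries, measured as the root mean square (RMS) difference of log2 CPM after centring each gene, among 10044 protein-coding genes that averaged 5 CPM or more. Nearest to GADD45A was FHL2, at an RMS difference of 0.15, and nearest to GADD45B was EPHA2, at 0.21, where the median gene lay 1.09 from each. SESN1 lay nearest to SERINC5, at 0.10 (median 0.69), and TNFRSF10B nearest to NMD3, at 0.090 (median 0.68). CDKN1B lay nearest to ZRANB1, at 0.078 (median 0.45), and MDM2 nearest to FMR1, at 0.071 (median 0.34). TP53INP1 lay nearest to PDZK1, at 0.15 (median 0.44), and TNFRSF10A nearest to SPIN3, at 0.11 (median 0.40). CDKN1A had no gene nearer than GPC3, at 0.28 (median 0.51).

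Paralogs of the 10 genes moved in both directions. SESN2, another sestrin, was higher in both exposures, at 47.1 ± 2.53 CPM at 1:10000, 45.0 ± 2.75 CPM at 1:40000 and 15.7 ± 0.907 CPM in controls, with log2 fold changes of 1.57 ± 0.081 (SE, adjusted p = 7.69e-15) and 1.51 ± 0.079 (SE, adjusted p = 2.05e-14) at 1:10000 and 1:40000 against control. SESN3 averaged 46.1 ± 6.55 CPM at 1:10000, 95.7 ± 25.2 CPM at 1:40000 and 61.8 ± 5.31 CPM in controls and was called lower at 1:10000, at -0.43 ± 0.15 (SE, adjusted p = 0.0185), and higher at 1:40000, at 0.61 ± 0.14 (SE, adjusted p = 0.00196). The first call was lost without replicate 1 of 1:10000 (adjusted p = 0.0518) and without the filter on low counts (adjusted p = 0.0841), and the second value was 0.35 (adjusted p = 0.00447) without replicates 1 and 2 of 1:40000. MDM4, which binds and restrains p53, rose at 1:10000 and 1:40000 against control, by 1.71 ± 0.18 (SE, adjusted p = 2.09e-07) and 0.89 ± 0.18 (SE, adjusted p = 0.000666). TNFRSF10D, a TRAIL receptor without a working death domain, was higher at 1:10000, at 0.54 ± 0.11 (SE, adjusted p = 0.000113), and lower at 1:40000, at -0.51 ± 0.11 (SE, adjusted p = 0.000545).

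GADD45G stayed low, at 2.66 ± 0.478 CPM at 1:10000, 1.27 ± 0.461 CPM at 1:40000 and 1.31 ± 0.446 CPM in controls, and was called higher at 1:10000 against control, at 0.94 ± 0.28 (SE, adjusted p = 0.0043). TP53INP2 had 61.8 ± 6.09 CPM at 1:10000, 62.0 ± 5.30 CPM at 1:40000 and 66.5 ± 10.3 CPM in controls and did not pass in any comparison. CDKN1C, which encodes the CDK inhibitor p57, had 3 counts over the 1:10000 libraries, 5 over the 1:40000 libraries and 160 over the controls, a split that falls between the 2 aligners as well as between exposed and unexposed cells. TNFRSF10C, with at most 18 counts in a group, was not tested. Of 7 tested paralogs, 4 were called higher and 2 lower at 1:10000 against control, 3 and 2 at 1:40000 against control, and 3 and 1 between 1:10000 and 1:40000. Their median log2 fold changes were 0.54, -0.12 and 0.82 in these comparisons, against -0.020, -0.002 and -0.007 over all genes tested. The shares called higher were 57.1%, 42.9% and 42.9%, against 34.8%, 26.1% and 28.3% of all genes. Those called lower were 28.6%, 28.6% and 14.3%, against 36.2%, 26.0% and 29.1%. Some paralogs, such as SESN2, MDM4 and TNFRSF10D, are counted again in other lists below.

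TP73, a transcription factor of the p53 family, fell at 1:10000 and 1:40000 against control, with log2 fold changes of -1.59 ± 0.12 (SE, adjusted p = 2.17e-11) and -0.83 ± 0.11 (SE, adjusted p = 7.53e-07). ATM, the kinase that senses DNA breaks, fell at 1:10000, at -1.12 ± 0.094 (SE, adjusted p = 9.91e-11), and had -0.11 ± 0.088 (SE, adjusted p = 0.297) at 1:40000 against control. CHEK1, a checkpoint kinase, rose at 1:10000, at 0.61 ± 0.058 (SE, adjusted p = 8.47e-10), while ATR, its activating kinase, fell there, at -0.51 ± 0.094 (SE, adjusted p = 3.82e-05), and rose at 1:40000, at 0.26 ± 0.088 (SE, adjusted p = 0.0158). The p53 phosphatase gene PPM1D had 0.004 ± 0.097 (SE, adjusted p = 0.976) at 1:10000 and fell at 1:40000, at -0.39 ± 0.096 (SE, adjusted p = 0.00146). Of 8 tested and reported genes of the p53 family and its regulators, 2 were higher and 3 lower at 1:10000 against control (median log2 fold change -0.042), 2 and 2 at 1:40000 against control (-0.017), and 3 and 3 between 1:10000 and 1:40000 (0.007). The 25.0% higher and 37.5% lower at 1:10000 against control stand beside 34.8% and 36.2% of all genes. At 1:40000 against control 25.0% were called each way, against 26.1% and 26.0%. Between 1:10000 and 1:40000 it was 37.5% each way, against 28.3% and 29.1%.

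Of 21 other p53 target genes, 8 were higher and 8 lower at 1:10000 against control (median log2 fold change -0.077), 7 and 4 at 1:40000 against control (-0.024), and 7 and 6 between 1:10000 and 1:40000 (0.057). The 38.1% called in each direction at 1:10000 against control stand near the 34.8% higher and 36.2% lower of all genes, whose median was -0.020. At 1:40000 against control 33.3% were higher, against 26.1% of all genes, and between 1:10000 and 1:40000 also 33.3%, against 28.3%. The shares called lower in these 2 comparisons were 19.0% and 28.6%, against 26.0% and 29.1%. GDF15, a secreted stress cytokine, averaged 242 ± 42.1 CPM at 1:10000, 35.8 ± 6.41 CPM at 1:40000 and 18.5 ± 3.38 CPM in controls, with log2 fold changes of 3.73 ± 0.16 (SE, adjusted p = 2.49e-12) and 0.99 ± 0.16 (SE, adjusted p = 8.71e-05) at 1:10000 and 1:40000 against control. PLK3, a stress-induced kinase, rose by 3.81 ± 0.25 (SE, adjusted p = 6.05e-12) at 1:10000 against control, and PMAIP1, which encodes the death-promoting protein NOXA, by 3.28 ± 0.26 (SE, adjusted p = 2.64e-11). Both were low in controls, at 1.63 and 0.944 CPM (73 and 41 counts in all), beside 24.2 and 9.53 CPM at 1:10000. The sizes of these changes thus rest on few control counts. PHLDA3, an inhibitor of AKT signalling, rose by 1.95 ± 0.16 (SE, adjusted p = 7.96e-11) at 1:10000 against control. Among the 8 called lower there were TIGAR, at -1.02 ± 0.21 (SE, adjusted p = 0.000184), and POLH, at -0.98 ± 0.13 (SE, adjusted p = 2.66e-07). BBC3, which encodes PUMA, rose by 0.90 ± 0.15 (SE, adjusted p = 2.62e-05) at 1:40000 against control, while TRIAP1, a small survival protein, had in the same comparison -0.89 ± 0.11 (SE, adjusted p = 3.47e-07).

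**Figure D3:**
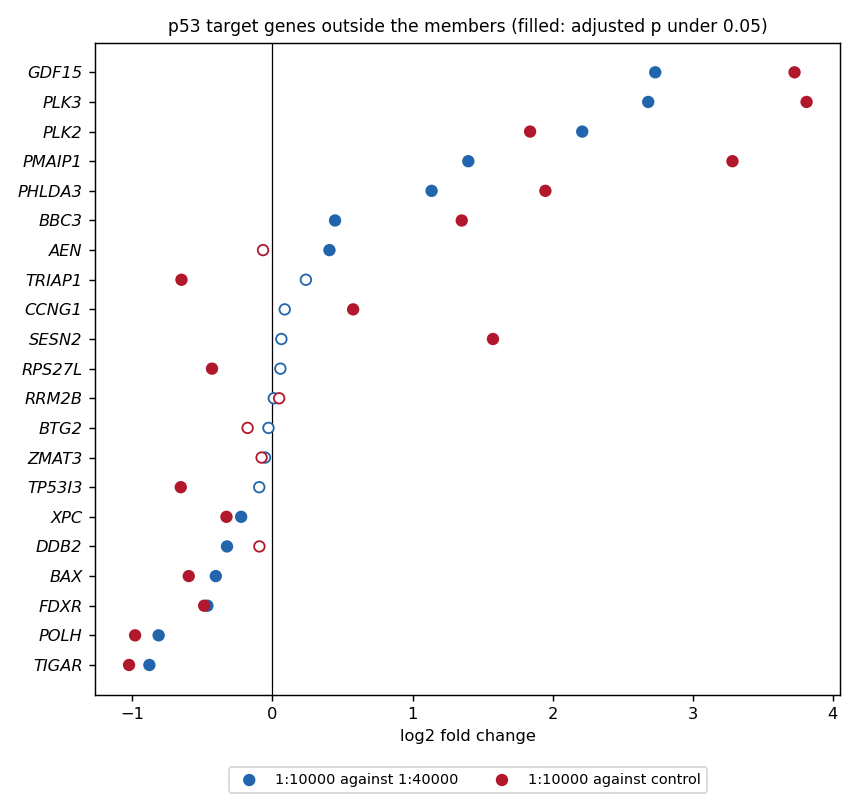
Log2 fold changes of 21 p53 target genes other than the 10 genes, at 1:10000 against 1:40000 (blue) and at 1:10000 against control (red), ordered by the first; filled points passed an adjusted p under 0.05. GDF15 and PLK3 stand at the top with 2.73 and 2.68 in blue and 3.73 and 3.81 in red, and genes lie on both sides of 0; the 2 comparisons share the 1:10000 libraries.

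Factors known to drive one or more of the 10 genes without p53 were counted too. Of 16, 11 were called higher and 2 lower at 1:10000 against control (median log2 fold change 0.57), 8 and 2 at 1:40000 against control (0.12), and 11 and 2 between 1:10000 and 1:40000 (0.40). The shares called higher were 68.8%, 50.0% and 68.8% in these comparisons, against 34.8%, 26.1% and 28.3% of all genes. This list was chosen with earlier results of these data known, so its shares cannot be read as independent of that choice. The 2 lower at 1:10000 against control were FOXO4, at -0.97 ± 0.12 (SE, adjusted p = 1.17e-07), and SMAD3, at -0.44 ± 0.068 (SE, adjusted p = 3.21e-06). DDIT3, known as CHOP and a known activator of TNFRSF10B, averaged 88.8 ± 9.46 CPM at 1:10000, 46.5 ± 10.8 CPM at 1:40000 and 8.84 ± 0.999 CPM in controls, with log2 fold changes of 3.33 ± 0.15 (SE, adjusted p = 8.58e-14) and 2.40 ± 0.15 (SE, adjusted p = 4.22e-11) at 1:10000 and 1:40000 against control. ATF3, a stress factor, rose by 4.04 ± 0.12 and 1.45 ± 0.13 in the same comparisons (adjusted p = 3.31e-19 and 9.24e-10). CEBPB, a C/EBP factor, averaged 154 ± 13.8 CPM at 1:10000, 120.1 ± 20.2 CPM at 1:40000 and 35.8 ± 5.92 CPM in controls, and rose by 2.12 ± 0.12 (SE, adjusted p = 2.91e-12) and 1.75 ± 0.12 (SE, adjusted p = 1.46e-10) at 1:10000 and 1:40000 against control. KLF6, a zinc finger factor, averaged 195 ± 18.1 CPM at 1:10000, 80.1 ± 7.03 CPM at 1:40000 and 48.6 ± 2.51 CPM in controls, and rose by 2.00 ± 0.075 (SE, adjusted p = 1.95e-17) at 1:10000 against control. ATF4, a central factor of the integrated stress response, averaged 439 ± 28.8 CPM at 1:10000, 413 ± 13.5 CPM at 1:40000 and 223 ± 13.2 CPM in controls and did not pass between 1:10000 and 1:40000, at 0.087 ± 0.056 (SE, adjusted p = 0.19).

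Around the death receptors, 7 of 18 tested signalling genes were higher and 7 lower at 1:10000 against control (median 0.15), 4 and 6 at 1:40000 against control (-0.088), and 8 and 2 between 1:10000 and 1:40000 (0.13). The shares called higher were 38.9%, 22.2% and 44.4% in these comparisons, against 34.8%, 26.1% and 28.3% of all genes, and those called lower 38.9%, 33.3% and 11.1%, against 36.2%, 26.0% and 29.1%. BIRC3, an inhibitor of apoptosis, averaged 13.3 ± 3.15 CPM at 1:10000, 4.37 ± 0.914 CPM at 1:40000 and 2.71 ± 0.782 CPM in controls and rose by 2.38 ± 0.20 (SE, adjusted p = 1.16e-10) at 1:10000 against control. TNFRSF21, the receptor DR6, averaged 305 ± 38.2 CPM at 1:10000, 150.0 ± 11.3 CPM at 1:40000 and 103 ± 5.41 CPM in controls and rose by 1.57 ± 0.076 (SE, adjusted p = 2.63e-15). TNFRSF11B, a soluble decoy receptor, rose by 1.38 ± 0.17 (SE, adjusted p = 2.58e-07) there. On the intracellular side, CASP10, a death receptor caspase, fell by 1.00 ± 0.15 on the log2 scale (SE, adjusted p = 2.58e-06) at 1:10000 against control, and RIPK1, an adaptor kinase, had -0.95 ± 0.15 (SE, adjusted p = 1.31e-05) and -0.81 ± 0.14 (SE, adjusted p = 0.000111) at 1:10000 and 1:40000 against control. CASP8, the main initiator caspase of these receptors, had -0.26 ± 0.074 (SE, adjusted p = 0.00328) and -0.48 ± 0.073 (SE, adjusted p = 6.28e-06) in the same comparisons.

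Of 20 cyclin, CDK, CDC25 and E2F genes, 7 were higher and 8 lower at 1:10000 against control (median -0.040), 5 and 5 at 1:40000 against control (0.058), and 4 and 5 between 1:10000 and 1:40000 (-0.015). The 35% higher and 40% lower at 1:10000 against control stand near the 34.8% and 36.2% of all genes. The 25.0% each way at 1:40000 against control stand near 26.1% and 26.0%. Between 1:10000 and 1:40000 20.0% were higher and 25.0% lower, against 28.3% and 29.1%. CCND1 and CCND2, which encode D-type cyclins, were higher at 1:10000 against control, at 0.61 ± 0.062 (SE, adjusted p = 2.53e-09) and 0.91 ± 0.17 (SE, adjusted p = 0.000248). E2F2, a factor for DNA synthesis genes, and CCNE1, an E-type cyclin, were lower, at -1.18 ± 0.13 (SE, adjusted p = 1.29e-08) and -0.89 ± 0.12 (SE, adjusted p = 2.15e-07). CCNE2 had 0.051 ± 0.16 (SE, adjusted p = 0.788) at 1:10000 against control and -0.54 ± 0.16 (SE, adjusted p = 0.00607) at 1:40000 against control, where it was -0.41 (adjusted p = 0.05) and not called without replicates 1 and 2 of 1:40000. CDC25A, a phosphatase that activates CDKs, and CCNB1, a mitotic cyclin, were lower at 1:40000, at -0.52 ± 0.10 (SE, adjusted p = 0.000176) and -0.43 ± 0.067 (SE, adjusted p = 7.16e-06).

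Of 10 further CDK inhibitors, pocket proteins and inhibitory kinases, 3 were higher and 3 lower at 1:10000 against control (median -0.006), 2 and 1 at 1:40000 against control (0.069), and 2 and 3 between 1:10000 and 1:40000 (-0.12). The 30% called each way at 1:10000 against control lie below the 34.8% and 36.2% of all genes. WEE1, a kinase that holds CDK1 inactive, was higher at 1:10000 and 1:40000 against control, at 0.34 ± 0.072 (SE, adjusted p = 0.000155) and 0.60 ± 0.071 (SE, adjusted p = 1.54e-07). RBL2, a pocket protein of resting cells, was lower at 1:10000 against control, at -0.31 ± 0.079 (SE, adjusted p = 0.00116). CDKN2D and CDKN2B were also called higher there, at 1.40 ± 0.21 (SE, adjusted p = 1.37e-06) and 0.74 ± 0.24 (SE, adjusted p = 0.00764). CDKN2C was called lower, at -1.43 ± 0.25 (SE, adjusted p = 1.53e-05), as was CDKN1C. These CDK inhibitor genes did not reach the mean of 5 CPM set for named genes.

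**Figure D4:**
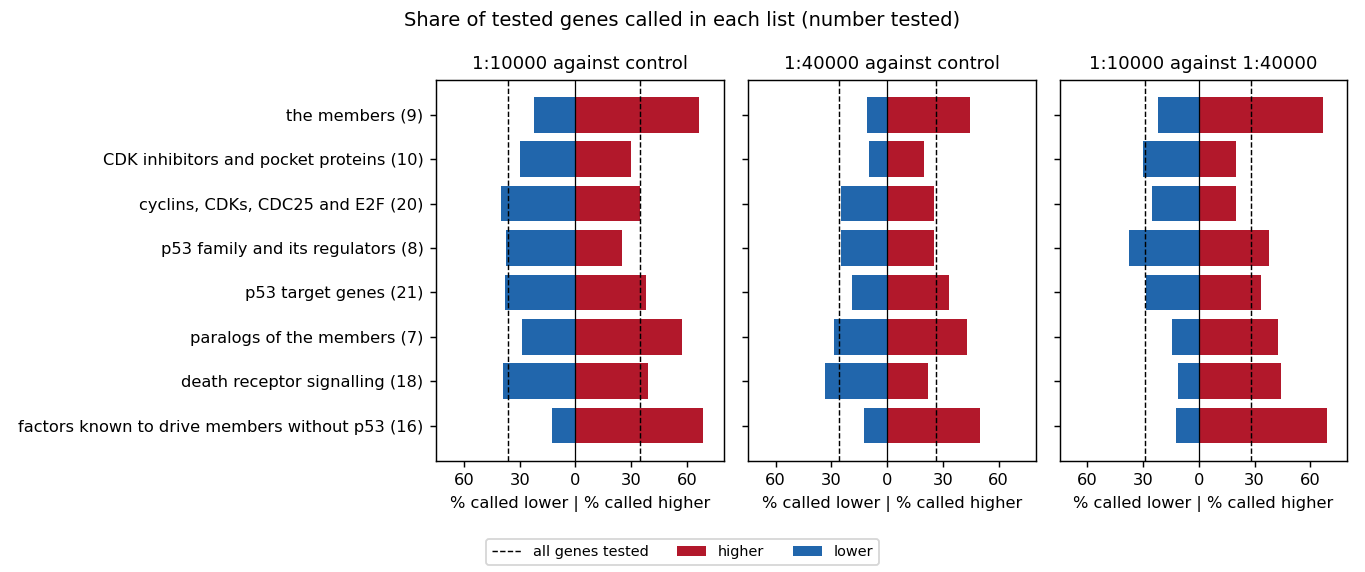
Share of tested genes called higher (red, to the right) and lower (blue, to the left) in each gene list and comparison, with the number tested in brackets; dashed lines are the shares over all 13158 genes, such as 34.8% higher and 36.2% lower at 1:10000 against control. The 9 growth arrest and death receptor genes (labelled the members), their paralogs, the other p53 target genes and the factors that act without p53 reach past the dashed line on the higher side in each panel. Genes and lists were chosen with earlier results of these data known, so these shares are not independent of that choice.

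Promoter sequences were searched for letters that match the p53 consensus. RefSeq on GRCh38.p14 gave 13 annotated starts for 6 of the 10 genes, and the 250 bases before each start were searched on both strands. GADD45A, TNFRSF10A, TNFRSF10B and TP53INP1 had no start in the promoter set used and were not searched. The first search was for the p53 half-site consensus with no mismatch, which 5.57% of 35116 promoters held, and it matched 2 of the 13 windows, 1 of SESN1 and 1 of FAS. The MDM2 windows, where a p53 site is known, had no such match, and the search was then loosened with these sequences in view. In this second search a p53 full site was a pair of half-sites with at most 3 mismatches in all and a gap of at most 1 base, with the central C and G kept, and 5 of the 13 windows matched. By the looser rule 1.97% of promoters held a site, a share that cannot be set against the windows the rule was fitted to. Matches fell in 1 window each of SESN1, FAS and CDKN1B and in 2 of MDM2, while the windows of CDKN1A and GADD45B had none. The 2 MDM2 windows overlap and hold the same site. The FAS window lay wholly in exons of FAS (250 bases), so its match is in annotated exon sequence. The CDKN1B window had 244 of its 250 bases in exons of CDKN1B. The rule can miss p53 elements, so letters outside a match are not shown to be free of them. The matched letters read as follows, with the core bases in capitals.
SESN1: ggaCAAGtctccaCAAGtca
MDM2: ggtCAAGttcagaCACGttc
FAS: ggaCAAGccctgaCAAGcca
CDKN1B: aggCCAGccagagCAGGttt

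SESN1 and MDM2 each held a site by the looser rule close to some of their starts. Whether a match goes with the direction of change was not tested. The matches began 49 and 94 bases before those starts. The SESN1 window at the third start, chr6:109008989-109009238 on the minus strand, and the MDM2 window at the third start up to the first exon base, chr12:68808767-68809001 on the plus strand, are printed 5′ to 3′ with the site in capitals. The GADD45B window, chr19:2475877-2476121 on the plus strand, is shown beside them as a window without a match.
SESN1: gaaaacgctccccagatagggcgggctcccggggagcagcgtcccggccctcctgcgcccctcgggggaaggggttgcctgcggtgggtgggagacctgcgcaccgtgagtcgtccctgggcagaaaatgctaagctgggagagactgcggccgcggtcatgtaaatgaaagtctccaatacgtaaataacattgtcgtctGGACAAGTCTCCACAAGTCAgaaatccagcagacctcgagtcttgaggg
MDM2: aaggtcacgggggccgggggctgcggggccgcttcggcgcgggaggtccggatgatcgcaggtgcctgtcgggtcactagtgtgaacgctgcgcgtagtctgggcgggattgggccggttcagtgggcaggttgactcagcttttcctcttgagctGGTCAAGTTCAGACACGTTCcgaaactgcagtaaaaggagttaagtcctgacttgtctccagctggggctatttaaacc
GADD45B: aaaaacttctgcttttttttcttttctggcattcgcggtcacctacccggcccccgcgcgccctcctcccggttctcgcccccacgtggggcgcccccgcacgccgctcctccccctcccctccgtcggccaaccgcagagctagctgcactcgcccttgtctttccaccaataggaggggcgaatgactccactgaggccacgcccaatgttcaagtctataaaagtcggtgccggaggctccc

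The GC box GGGCGG, found in 42.6% of promoters, was present in 11 of the 13 windows on either strand, among them all 3 of SESN1 and not that of GADD45B. Some windows of MDM2 and of FAS overlap and share boxes. The windows are thus not separate promoters, and their share cannot be compared with 42.6%. The CHOP and ATF4 composite element TGATGNAA (3.14% of promoters) and the FOXO element TGTTTAC (2.98%) had no match in any of the 13 windows. A match is a description of the letters and not a bound site, and the windows leave out distal elements.

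Marker genes were read for the labelled cell type. Of 11 enterocyte-like epithelial markers, 10 passed the filter, with a summed level of 12170 to 14210 CPM at 1:10000, 9931 to 11370 CPM at 1:40000 and 10160 to 12040 CPM in controls. The markers of this list did not move together: at 1:10000 against control 2 of the 10 were called higher and 6 lower, and at 1:40000 against control 3 were called lower and the other 7 did not pass. KRT8 and KRT18, keratins that make up most of the sum, were higher at 1:10000 against control, with log2 fold changes of 0.42 ± 0.079 (SE, adjusted p = 5.2e-05) and 0.74 ± 0.082 (SE, adjusted p = 2.58e-08). CDX2 and HNF4A, transcription factors of intestinal epithelium, were lower there, with -1.45 ± 0.077 (SE, adjusted p = 1.95e-14) and -1.40 ± 0.069 (SE, adjusted p = 3.48e-15), as were VIL1, CDH1, ALPI and SI. KRT20 did not pass the filter. Of 7 fibroblast markers 4 passed and 1 was at 0 throughout, with sums of 59.3 to 78.5 CPM at 1:10000, 104 to 134 CPM at 1:40000 and 129.5 to 153 CPM in controls. Of 7 leukocyte markers 2 passed, with sums of 9.15 to 11.8 CPM at 1:10000, 16.0 to 23.6 CPM at 1:40000 and 13.9 to 21.6 CPM in controls, and endothelial markers summed to at most 11.6 CPM in any library. The part of these markers in the results was not tested.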

How the data were processed

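The authors deposited unnormalised read counts for each Ensembl gene, in a separate file for each of 15 libraries, which were made with the RNeasy Plus Micro Kit and the TruSeq RNA Kit for polyadenylated RNA, per the labels' protocols. Tools named, without roles, in the submitters' processing notes are featureCounts, STAR 2.7.9a, DESeq2 1.32.0 and cutadapt, and the build is GRCh38. Per the file headers, the authors made the control counts from RNA STAR output (60649 genes listed) and the rinse aid counts from HISAT2 output (61544 genes). The strand setting and annotation release are not given in the sources used here.

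Files were joined by Ensembl identifier without its version (60557 shared, 3798 with a changed version), and rows of the Y pseudoautosomal copies were added to their gene. Shared genes held 99.977% or more of the counts in every library. The fit used R 4.3.3 and edgeR 4.0.16 (filterByExpr by group, TMM scaling, 3 group means, all 15 libraries, robust quasi-likelihood test), with adjustment within each of 3 comparisons. SE was computed as the size of the log2 fold change over the root of F, and 95% intervals use the t distribution. The fit was checked before use on simulated counts with few changed genes and 1 common spread. That check does not cover changes as wide as those here, or differences in aligner and annotation. Alternatives were RLE and upper-quartile scaling, TMM from genes with an unchanged version, no filter, DESeq2 1.42.0, a replicate block, only the groups compared, 1:40000 without its deepest and shallowest library, and each library left out in turn.

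Coordinates, exon lengths and overlaps come from GENCODE 29, and promoters from RefSeq GRCh38.p14. The genes and the 7 lists (101 genes reported) were chosen with earlier results of these data known. Besides the 10 genes and all paralogs, the rule for named genes takes up to 4 called genes per list and comparison with control with the largest absolute log2 fold change and a mean of at least 5 CPM. RHOBTB2, AC100861.1 and the carboxypeptidase M gene were named after their values were seen, as exon overlaps with over 100 counts. TIGAR, POLH, FOXO4, SMAD3, CDKN2B, CDKN2C and CDKN2D were also named outside the rule, as called genes of their lists. The p53 site rule was loosened after a stricter search had missed MDM2. 1 further gene of these lists is not reported here. No list was given a test. The median shift of all genes stayed under 0.1 on the log2 scale under each setting.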

Additional observations from a re-analysis of the deposited data

Results flagged for a closer look

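Of 144 groups of 5 libraries tested for a value far from the rest with Dixon's criterion (gap over range above 0.71), 8 were flagged, and chance flags about 1 in 20. Among the 10 genes, replicate 1 at 1:10000 was flagged for MDM2, at 196.8 CPM beside 172.7 to 177.6 CPM in the other libraries of its group. CHEK1 was high in replicate 2 at 1:40000, at 140.6 CPM beside 130.7 to 132.7 CPM, and RBL2 in replicate 2 at 1:10000, at 68.55 CPM beside 54.86 to 57.92 CPM. ATF3 stood out in replicate 5 of the controls, at 8.27 CPM beside 5.79 to 5.99 CPM, and CCNE2 was low in replicate 2 of the controls, at 7.146 CPM beside 11.1 to 11.8 CPM. The other flags rest on 1 or 2 counts, namely CDKN1C in replicate 5 at 1:40000, at 0.2049 CPM, and TNFRSF10C in replicate 1 at 1:10000, at 0.117 CPM, and in replicate 2 of the controls, at 0.09789 CPM.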

How the results depend on the processing

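Of 621 alternative values of the members' fold changes over 23 settings, 599 kept direction and side of the threshold, 4 lost the call, 1 gained it and 17 changed sign. All 17 belong to CDKN1A or to MDM2 at 1:40000 against control, neither of which was called there. With each library left out in turn, 8, 4 to 5 and 8 of the 9 tested genes were called at 1:10000 against control, 1:40000 against control and 1:10000 against 1:40000. Called genes ran from 9058 to 9556, 6254 to 6972 and 7076 to 7619 in the same order.

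Values that changed sign were small and not called, and the cause was not tested. At 1:10000 against control, PPM1D was -0.001 with scaling from unchanged versions and -0.0 with the replicate block, and leaving out libraries gave -0.07 to 0.058 for PPM1D, -0.215 to 0.133 for CDKN1A and -0.078 to 0.134 for CCNE2. At 1:40000 against control, RBL2 was 0.023 with upper-quartile scaling and 0.05 without a filter, and CDKN1A was 0.003 without a filter. There, without replicates 1 and 2 of 1:40000, GADD45G was 0.051 and CCNE1 0.02. Leaving out libraries gave -0.231 to 0.117 for CDKN1A, -0.0 to 0.102 for MDM2 and -0.061 to 0.019 for RBL2. At 1:10000 against 1:40000, CDKN1A was -0.034 with upper-quartile scaling, -0.059 without a filter and -0.009 with the replicate block. TP53INP2 was -0.041, -0.063 and -0.001 under those settings and -0.001 with only the 2 groups, and SESN2 was -0.006 without a filter. Leaving out libraries gave -0.118 to 0.154 for CDKN1A, -0.05 to 0.051 for TP53INP2 and -0.16 to 0.029 for CDC25A.

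Without a filter, the list of CDK inhibitors and pocket proteins had 5 calls at 1:40000 against control in place of 3, and called genes split into 4499 higher and 2929 lower, against 3440 and 3419. Same-numbered libraries correlated from -0.05 to 0.281, above 0.1 for 0, 3 and 4 of 5 numbers at 1:10000 against control, 1:40000 against control and 1:10000 against 1:40000, and best with their own number for 1, 3 and 3 of 5. As not all 5 were above 0.1 in any comparison, the numbers were not taken as pairs, and a shared source in part of the libraries was not tested. With the replicate block, 9593, 7314 and 8011 genes were called in the 3 comparisons, and the members' calls were 8, 5 and 8 as before. Among other named genes, E2F2 and TNFRSF11B at 1:40000 against control lost their calls with 6 and 7 of the 15 libraries left out. Depth limits CDKN1A and TNFRSF10A, at 21 counts each in the shallowest library.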
